A study of Rattus norvegicus with 11 samples.

Results

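The members described here are the probe sets for the proteasome, the ubiquitin-conjugating cascade and the deubiquitinating enzymes in rat hippocampus. They were chosen by name, as every probe set with a single gene symbol that starts with Psma, Psmb, Psmc, Psmd, Psme, Psmf, Psmg, Ube, Usp or Uch. The rule gave 137 of the 15923 probe sets of the array, for 111 genes. It used no measured value. Total RNA of hippocampus was hybridised for 5 samples of rats on a ketogenic diet, which the labels describe as preventing epileptic seizures, and for 6 samples on a control diet. The sources used here do not give strain, sex, age or time on the diet. The labels do not say that each sample is a separate animal, and p-values cover only the spread among these 11 samples. The title of ketogenic replicate 3 ends in another suffix than all other titles, and the labels do not explain it.

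Ubiquitin is a small protein that is attached to other proteins as a tag. An activating enzyme loads it, a conjugating enzyme carries it, and a ligase passes it to the substrate, where chains of it can mark the protein for destruction. The proteasome reads that mark. Its 19S cap binds the chain and unfolds the substrate with a ring of ATPases, and its barrel-shaped 20S core cuts the chain of amino acids into peptides. Deubiquitinating enzymes remove or trim the tag. In neurons this system turns over synaptic proteins and its activity is tied to synaptic change.

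Among the 137 members, 130 were bright enough to be tested, for 107 genes. Those too dim were the only probe sets of Psmb9, Ube2d2b, Ube2t and Usp42 and 1 probe set each of Ube2f, Usp40 and Usp8. Probe sets that carry several symbols, such as those of Psmb6 and Psme3, are not members. A member is described as called, or as having risen or fallen, where its adjusted p was under 0.05 in limma, after Benjamini-Hochberg adjustment across the 11899 probe sets tested. On the ketogenic diet 29 members rose and 8 fell, and 93 were not called. The called share was 28.5% of the tested members, against 16.5% of all tested probe sets. By direction, 22.3% of members rose, against 8.62% of all tested probe sets, while 6.15% fell, against 7.86%. Members were brighter, with a median level of 7.69, against 6.98 for all tested probe sets (log2 signal). With the dimmest 50% of probe sets dropped, 28 of 113 members rose and 6 fell, and 1637 of all 7933 probe sets were called, 51.7% of them higher. The part of signal level in the larger called share of members was not tested. With 1 probe set per gene, 27 genes rose and 5 fell of 107, or 25.2% and 4.67%. Such shares over all genes of the array are not given here. The median log2 fold change was 0.07 over the tested members and -0.00413 over all tested probe sets. The changes were small. Those called higher were 1.13-fold to 2.15-fold higher, and those called lower 1.2-fold to 1.41-fold lower, with 1 member, Ube3b, past 2-fold. In 15 tested members every ketogenic array lay above every control array, and in 1 every ketogenic array lay below. Groups that did not overlap were found in 6.99% of all tested probe sets, or in 3.91% of all tested probe sets in the higher direction and 3.08% in the lower.

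**Figure D1:**
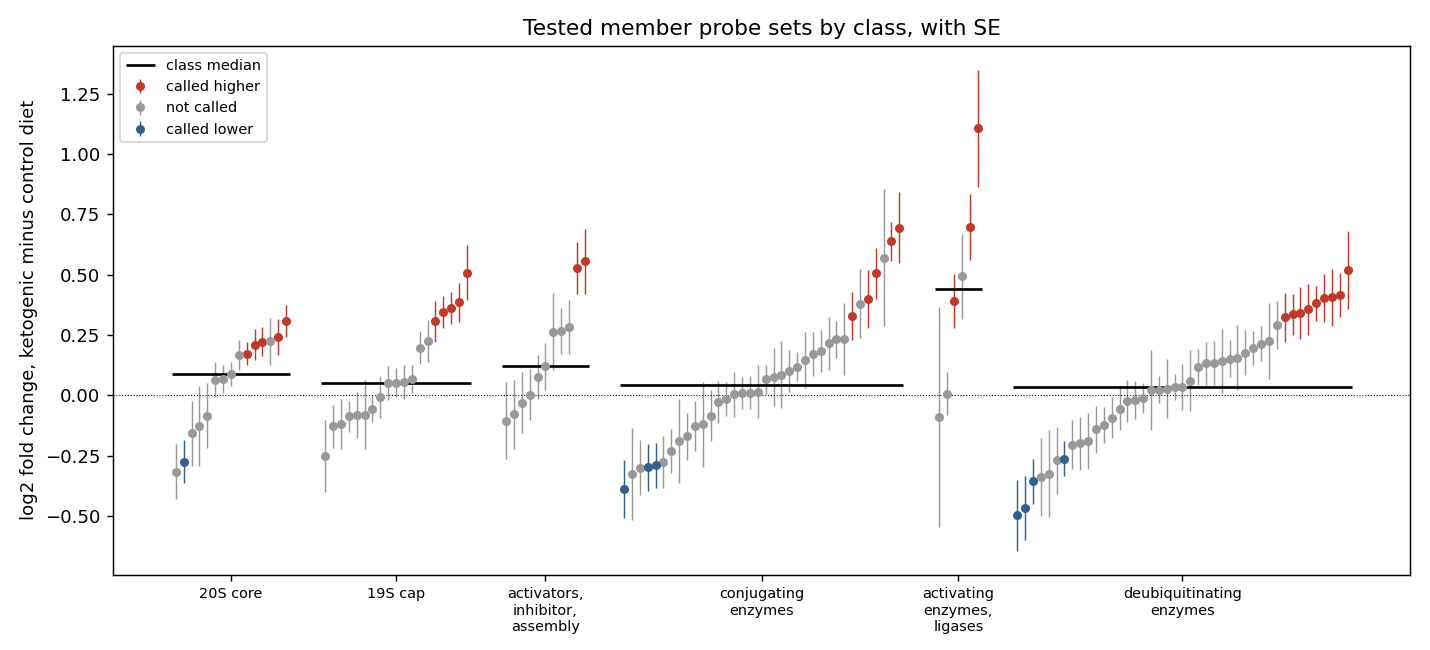
Log2 fold change, ketogenic minus control diet, of each of the 130 tested members, ordered by size within its class, with the standard error as a bar; the horizontal line marks the class median. Red points were called higher (29), blue points lower (8) and grey points were not called (93), and every class has members on both sides of 0. The class labelled activating enzymes and ligases holds no activating enzyme.

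Arrays of the diets also differed as a whole. The median signal as deposited was 79.9 to 87.9 on ketogenic and 89.2 to 94.4 on control arrays, with no overlap. The mean log2 signal of the hybridisation spike-ins was 8.51 to 8.91 on ketogenic and 8.24 to 8.54 on control arrays, with control replicate 4 above ketogenic replicate 5. The log2 ratio of the 3 prime to the 5 prime control probe set, a measure of RNA quality, was 0.13 to 0.34 for Gapdh on ketogenic arrays, against -0.07 to 0.15 on control arrays. For actin it was 0.755 to 0.985 on ketogenic arrays and 0.487 to 0.75 on control arrays, with the groups just separate. With both ratios as covariates 0 members were called, where over all tested probe sets 6 were called in limma, all lower (0.0504%), and 767 had an unadjusted p under 0.05. The sign of 35 of the 37 called members stayed the same in that fit, though 0 stayed called. These members were picked for their differences on the same arrays, so the kept signs are no independent check of the calls. Because the actin ratio separated the diets, its effect and that of diet cannot be told apart. Ketogenic replicate 3 was the lowest of the 5 ketogenic arrays in 21 of the 29 members that rose. How often this array was lowest among all probe sets called higher was not tested. Without it 44 members rose and 10 fell, against 13.3% of all tested probe sets higher and 13.3% lower. Of the 37 calls, 23, 16, 37, 14 and 20 held without ketogenic replicates 1 to 5, and 26, 19, 23, 23, 23 and 31 without control replicates 1 to 6. Calls over all tested probe sets, 1961 with every array, moved too. They numbered 1213, 852, 3166, 806 and 1236 without ketogenic replicates 1 to 5. Without control replicates 1 to 6 they numbered 1722, 1166, 1261, 1366, 1263 and 1951. In whole tissue, fewer cells of a type and less RNA per cell cannot be told apart. Of the marker lists, all 4 red blood cell genes fell, with a mean level of 5.80 to 6.42 on ketogenic and 7.47 to 7.85 on control arrays (log2 signal). Of choroid plexus genes 3 of 5 fell, and among 9 neuronal genes 1 rose and 0 fell. Of 6 astrocyte, 5 oligodendrocyte and 4 microglial genes tested, 2, 1 and 2 fell. Their part in the changes of the members was not tested. Neuronal markers were well represented, with mean levels over the list of 9.58 to 9.74 on ketogenic and 9.44 to 9.69 on control arrays (log2 signal).

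In the 20S core, 5 of 15 tested members rose and 1 fell, or 33.3% and 6.67%. Of all tested probe sets 8.62% rose and 7.86% fell. The median log2 fold change was 0.09. The outer alpha rings, which gate entry to the barrel, held 2 that rose, Psma2 and Psma7, among 7. Psma2 (1398856_at) had log2 signals of 8.72, 8.65, 8.58, 8.86 and 8.74 in ketogenic samples 1 to 5, against 8.30 to 8.49 with a median of 8.41 in the 6 control samples. Every ketogenic array lay above every control array. Psma2 rose by 0.31 in log2 units (adjusted p = 0.00852 in limma, SE 0.06), or 1.24-fold. Psma7 rose by 0.24 (SE 0.08), with overlapping groups. Psma3 stood at a log2 difference of -0.32 (adjusted p = 0.0724, limma) and its gene has a near-identical relative, Psma3l, which a further probe set could not separate from it.

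The inner beta rings carry the cutting sites. Of the 6 constitutive beta members tested, Psmb1, Psmb4 and Psmb7 rose and Psmb2 fell. Psmb1, a structural subunit, was at 9.37 ± 0.04 (SD, n = 5) on the ketogenic diet and 9.19 ± 0.05 (SD, n = 6) on the control diet, and rose by 0.17 (adjusted p = 0.0302 in limma, SE 0.05). Its groups were just separate, with the lowest ketogenic array at 9.30 and the highest control array at 9.29. Psmb4, also structural, was 1.17-fold higher, and Psmb7, which bears the trypsin-like site, 1.16-fold higher. Psmb5, which bears the chymotrypsin-like site, stood at a log2 difference of 0.07 (adjusted p = 0.432 in limma, SE 0.06). Psmb2, a structural subunit, had log2 signals of 8.52, 8.57, 9.06, 8.75 and 8.87 in ketogenic samples 1 to 5, against 8.90 to 9.15 with a median of 9.04 in the control samples. Ketogenic replicate 3 lay within the controls and the other ketogenic arrays below all of them. Psmb2 fell by 0.27 in log2 units (adjusted p = 0.0496 in limma, SE 0.09). It was the one called member of the core whose sign turned, to 0.03, with the 3 prime to 5 prime covariates. In fits that each left out 1 of the 11 arrays, Psma2 was called in all 11, Psmb4 in 6, Psmb1 in 5, Psma7 in 4, Psmb7 in 3 and Psmb2 in 2. All but Psma2 lost the call without control replicate 2, ketogenic replicate 2 or ketogenic replicate 4, with adjusted p of at most 0.129.

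Interferon can replace the cutting subunits by the immunoproteasome forms Psmb8, Psmb9 and Psmb10. Psmb8 stood at a log2 difference of -0.08 (SE 0.13) and Psmb10 at one of -0.16 (SE 0.13), neither called, with adjusted p of 0.695 and 0.434 in limma. Psmb9 was too dim to be tested, at log2 signals of 5.08, 2.32, 4.31, 5.06 and 5.01 on ketogenic arrays, and 2.38 to 4.24 with a median of 3.84 on control arrays. Ketogenic replicate 2 lay at the floor of 2.32 set for dim values.

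In the 19S cap, 5 of 19 tested members rose and 0 fell, or 26.3% and 0%. The shares of all tested probe sets were 8.62% and 7.86%. The class median was 0.05, and the members not called lay between -0.25 and 0.23. Of 5 ATPases, the motors that unfold the substrate, Psmc1 and Psmc5 rose. Psmc1 (1398792_at) had log2 signals of 8.77, 8.83, 8.59, 8.82 and 8.77 in ketogenic samples 1 to 5, against 8.32 to 8.60 with a median of 8.39 in the control samples. Ketogenic replicate 3 was low and control replicate 6 high, and those 2 arrays overlapped. Psmc1 rose by 0.35 (adjusted p = 0.00629 in limma, SE 0.07). Psmc5 was 1.31-fold higher (adjusted p = 0.00811, limma), while Psmc2, Psmc3 and Psmc4 had log2 fold changes of -0.09, 0.23 and -0.05 and were not called.

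Among 13 tested Psmd members, which build the scaffold, the lid and the chain receptors of the cap, Psmd1, Psmd7 and Psmd13 rose. Psmd7 (1389245_at), a lid subunit that partners the cap's own deubiquitinating subunit, had log2 signals of 8.64, 8.53, 8.37, 8.54 and 8.41 in ketogenic samples 1 to 5, against 8.05 to 8.24 with a median of 8.12 in the control samples. All ketogenic arrays lay above all control arrays. Its level was 1.29-fold higher (0.36 ± 0.07 in log2 units, SE, with adjusted p = 0.0055 in limma). Psmd13, another lid subunit, was 1.42-fold higher (0.51 ± 0.11 in log2 units, SE), and Psmd1, the scaffold at the base, 1.24-fold higher. Both had groups that were just separate. For Psmd13 the lowest ketogenic array was at 7.118 and the highest control array at 7.114, and for Psmd1 they were at 7.362 and 7.340. Psmd4, a receptor for ubiquitin chains, stood at a log2 difference of 0.05 (adjusted p = 0.634 in limma, SE 0.07). Psmd8, of the lid, was at 0.20 (adjusted p = 0.0608, limma), not called. The assembly helpers Psmd5, Psmd9 and Psmd10 were at -0.08, -0.25 and -0.13, not called. Psmc3ip, in the class by its name, encodes a protein of meiotic recombination and no cap subunit, and was at -0.12, not called. Psmc1, Psmc5, Psmd7 and Psmd13 were called in all 11 fits that left out 1 array, and Psmd1 in 7. Psmd1 lost the call without ketogenic replicates 2 or 4 or control replicates 2 or 3, with adjusted p of at most 0.072 in limma.

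**Figure D2:**
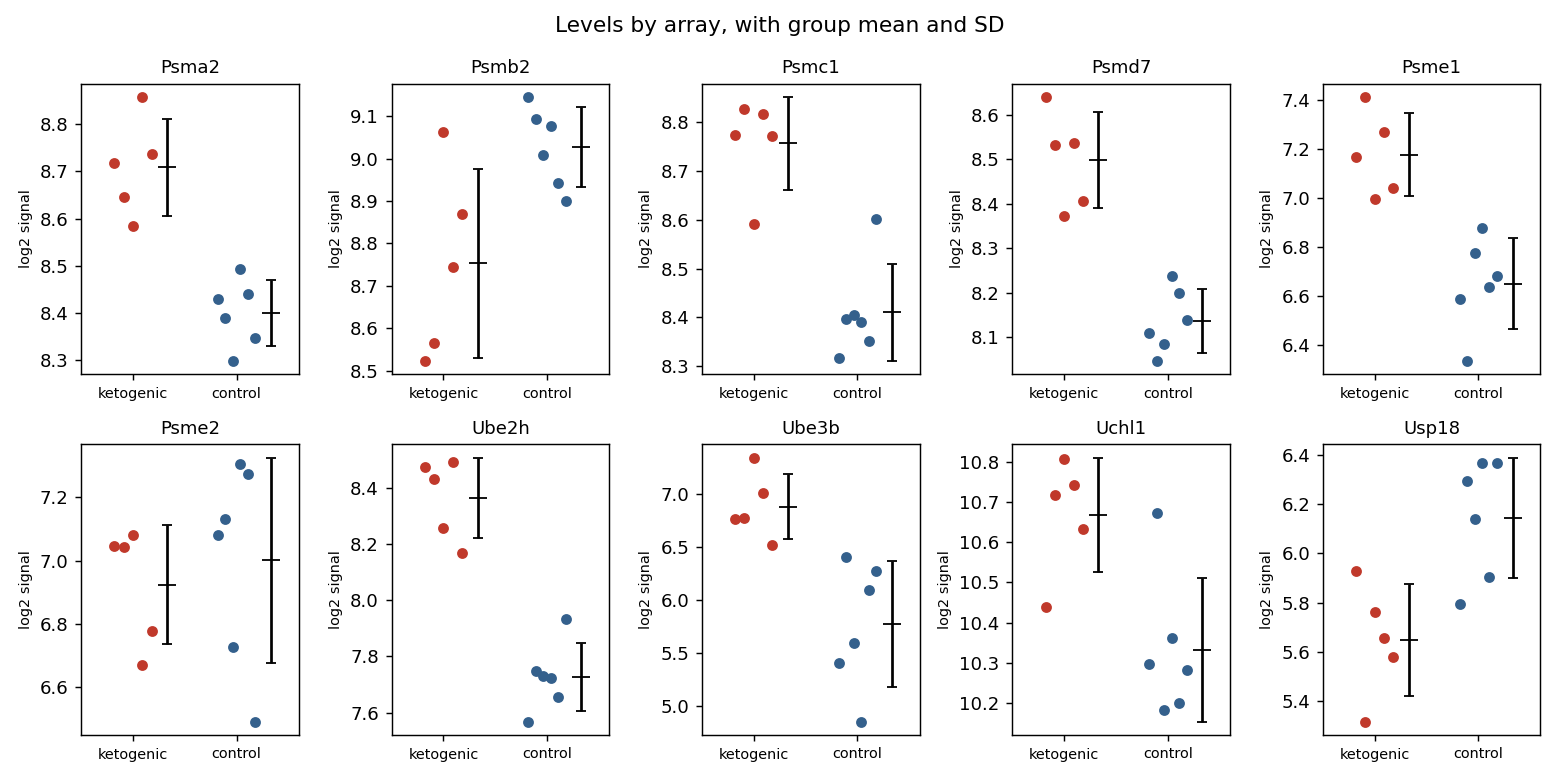
Log2 signal of 10 members on each ketogenic array (red, 5 points) and each control array (blue, 6 points), with the group mean and SD beside the points; axes differ between panels and do not start at 0. Psma2, Psmd7, Psme1, Ube2h and Ube3b show separate groups, Psme2 shows overlapping ones, and Psmb2 and Usp18 are lower on the ketogenic diet.

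The class of Psme, Psmf and Psmg symbols, mostly caps other than 19S and factors that build or block the core, had 11 tested members, of which 2 rose and 0 fell. These were 18.2% and 0%, against 8.62% and 7.86% of all tested probe sets. One of the 11, Psme3ip1, is in the class by its name only, as the gene of a protein that binds Psme3, and was at 0.08, not called. Psme1 (1367663_at) encodes the alpha subunit of PA28, an interferon-inducible activator that opens the core. It had log2 signals of 7.17, 7.41, 7.0, 7.27 and 7.04 in ketogenic samples 1 to 5, against 6.34 to 6.88 with a median of 6.66 in the control samples, with no overlap. Psme1 was 1.44-fold higher (0.53 ± 0.11 in log2 units, SE, with adjusted p = 0.0079 in limma). Psme2, the beta subunit of the same ring, was at 6.92 ± 0.19 (SD, n = 5) on the ketogenic diet and 7.0 ± 0.32 (SD, n = 6) on the control diet, a log2 difference of -0.08 (adjusted p = 0.74 in limma, SE 0.14). Whether the pair differed in response was not tested. Psmf1, known as an inhibitor of the core in vitro, was 1.47-fold higher (0.56 ± 0.13 in log2 units, SE, with adjusted p = 0.0163 in limma), also with separate groups. Psme1 and Psmf1 were called in all 11 fits that left out 1 array. Psme4, the activator PA200, had 3 probe sets at 0.27, 0.28 and -0.03, none called. Of them, 1368817_at and 1368818_at were called without ketogenic replicate 3. The assembly chaperones Psmg1 to Psmg4 ranged from -0.10 for Psmg3 to 0.26 for Psmg1, none called.

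Of 36 conjugating enzymes tested, 5 rose and 3 fell, or 13.9% and 8.33%, with a median of 0.04. Of all tested probe sets 8.62% rose and 7.86% fell, so the share that fell lay near the array's own. Ube2h (1372221_at), which works with the multi-subunit CTLH ligase, had log2 signals of 8.47, 8.43, 8.26, 8.49 and 8.17 in ketogenic samples 1 to 5. The control samples spanned 7.57 to 7.93 with a median of 7.73. Every ketogenic array lay above every control array, and Ube2h was 1.56-fold higher (0.64 ± 0.08 in log2 units, SE, with adjusted p = 0.000889 in limma). Its other probe set, 1390157_at, was at 0.15 (SE 0.12), not called. Ube2n, which builds chains used in signalling and DNA repair, was 1.62-fold higher by 1369617_at (adjusted p = 0.00876, limma). Its other probe set, 1399143_at, was at 0.10 (SE 0.09). Ube2v2, a partner of Ube2n without catalytic activity of its own, was at 0.09, not called. Ube2e2 was 1.42-fold higher, Ube2o, which acts as conjugating enzyme and ligase in one, 1.32-fold, and Ube2r2, which serves cullin ligases, 1.26-fold.

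The 3 conjugating enzymes that fell had adjusted p between 0.0436 and 0.04998 in limma. Ube2l6 (1373037_at), the conjugating enzyme for the ubiquitin-like ISG15, was at 5.86 ± 0.17 (SD, n = 5) on the ketogenic diet and 6.25 ± 0.18 (SD, n = 6) on the control diet, and fell by 0.39 on the log2 scale (SE 0.12). Ube2g2, which serves degradation of proteins from the endoplasmic reticulum, fell by 0.30, and Ube2g1 by 0.29 by 1370501_at. The other probe set of Ube2g1, 1398864_at, was at 0.23 (adjusted p = 0.0519, limma), the opposite direction. Ube2e2, Ube2h and Ube2n were called in all 11 fits that left out 1 array, Ube2o and Ube2r2 in 4, Ube2g1 in 3, and Ube2l6 and Ube2g2 in 2. Without ketogenic replicate 1 or 4 the 5 that were not called in all fits lost the call, with adjusted p of at most 0.115. Ube2d2 had 3 probe sets between -0.17 and 0.57, none called, and its sequence is close to that of other Ube2d genes, so that signal shared between them cannot be split here.

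The class named activating enzymes and ligases held 6 tested members and no activating enzyme. All 6 were Ube3 or Ube4 ligases or chain-elongating enzymes, of which 3 rose and 0 fell. These were 50% and 0%, against 8.62% and 7.86% of all tested probe sets. Ube3b (1371728_at), a ligase of the HECT family, had log2 signals of 6.76, 6.77, 7.34, 7.0 and 6.52 in ketogenic samples 1 to 5, against 4.86 to 6.40 with a median of 5.85 in the control samples. The lowest ketogenic array stood just above the highest control array, and controls were widely spread. Ube3b was 2.15-fold higher (1.11 ± 0.24 in log2 units, SE, with adjusted p = 0.0107 in limma). Ube4b, which lengthens ubiquitin chains, was 1.62-fold higher by 1376862_at (adjusted p = 0.00624, limma), with ketogenic replicate 3 at 7.69 inside the control range. Its other probe set, 1374507_at, stood at a log2 difference of 0.49 (adjusted p = 0.0678, limma), and was called without ketogenic replicate 3. Ube4a was 1.31-fold higher. The call of Ube4a held in 4 of the 11 fits that left out 1 array, and was lost without ketogenic replicates 2, 4 or 5 and control replicates 2, 3, 4 or 5, with adjusted p of at most 0.0839. Ube3a, the ligase gene affected in Angelman syndrome in humans, could not be resolved, at 5.28 ± 0.96 (SD, n = 5) on the ketogenic diet and 5.36 ± 0.92 (SD, n = 6) on the control diet, with ketogenic replicate 2 at 3.56 and control replicate 5 at 3.62. Ube3c was at 0.01 (SE 0.09).

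Of 43 deubiquitinating enzymes tested, 9 rose and 4 fell, or 20.9% and 9.3%, with a median of 0.04. The array's own shares were 8.62% and 7.86%, so the share that fell lay near that of all tested probe sets. Uchl1 (1369977_at), a ubiquitin hydrolase very abundant in neurons, had log2 signals of 10.44, 10.72, 10.81, 10.74 and 10.63 in ketogenic samples 1 to 5, against 10.18 to 10.67 with a median of 10.29 in the control samples. Control replicate 2 lay among the ketogenic arrays, above ketogenic replicates 1 and 5, and the other controls lay below all of them. Uchl1 was 1.26-fold higher (0.34 ± 0.08 in log2 units, SE, with adjusted p = 0.0195 in limma), and lost the call without ketogenic replicate 2 or 4 (adjusted p of at most 0.0551). Its relative Uchl3 was 1.28-fold higher. Usp24 was 1.33-fold higher with separate groups (adjusted p = 0.011, limma). Usp10, which acts on p53 in human cells, was 1.32-fold higher. Usp5, which takes apart free ubiquitin chains, was 1.33-fold higher, but its sign turned, to -0.10, with the 3 prime to 5 prime covariates. Usp4 was 1.25-fold higher.

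Among the members that fell, Usp18 (1389034_at), which removes ISG15 from proteins, had log2 signals of 5.93, 5.31, 5.76, 5.66 and 5.58 in ketogenic samples 1 to 5, against 5.79 to 6.37 with a median of 6.22 in the control samples. Ketogenic replicate 1 lay inside the control range and the other ketogenic arrays below it. Usp18 was 1.41-fold lower (-0.50 ± 0.15 in log2 units, SE, with adjusted p = 0.0343 in limma). Ube2l6, which attaches ISG15, fell too, with a call in 2 of the 11 fits that left out 1 array. Of the interferon-inducible PA28, Psme1 rose and Psme2 was not called. In the list of interferon and antigen presentation genes, 1 of 7 tested, Irf7, fell and 0 rose, with a list median of -0.14. The share that fell was 14.3%, against 7.86% of all tested probe sets. Usp46, studied in mice for its effect on behaviour, fell by 0.26 (adjusted p = 0.0302 in limma, SE 0.07), the single member whose ketogenic arrays all lay below the controls. In the fits that left out 1 array, Usp24 was called in all 11, Usp10 in 10, Uchl1 in 9, Usp46 in 5, Usp18 in 4, Uchl3 and Usp5 in 3 and Usp4 in 2. Without ketogenic replicate 2 or 4, Uchl1, Uchl3, Usp4, Usp5, Usp18 and Usp46 lost the call, and Usp10 lost it without ketogenic replicate 4 (adjusted p = 0.0511, limma). The highest adjusted p among them was 0.12, for Usp4.

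**Figure D3:**
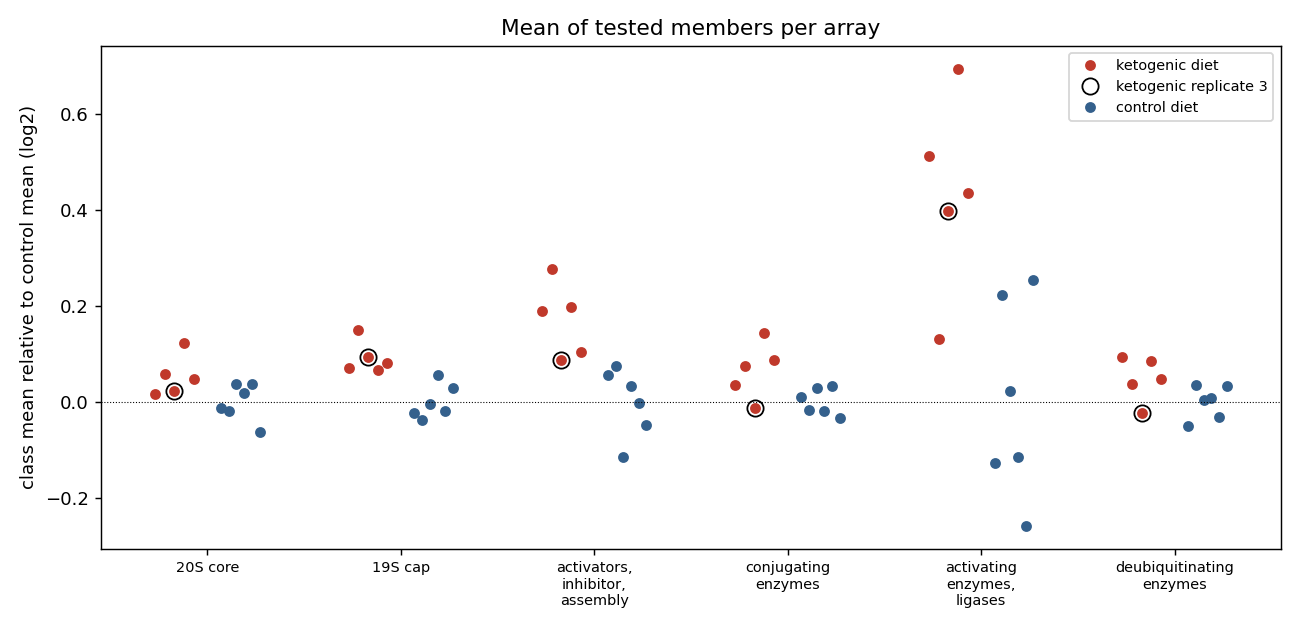
Mean of the tested members of each class on each array, as the difference from the control mean of every member (log2); red points are ketogenic arrays, blue points control arrays, and the ring marks ketogenic replicate 3. The groups are separate for the 19S cap and for the activators, inhibitor and assembly factors, and overlap in the other classes. The class labelled activating enzymes and ligases holds no activating enzyme.

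The class means by array put these counts side by side. For the 19S cap the mean of the 19 members, relative to the control mean, was 0.067 to 0.149 on ketogenic arrays and -0.037 to 0.055 on control arrays. The class mean does not stand for every member of the cap. Of the 19, 11 had a positive log2 fold change, or 57.9%, against 49.2% of all tested probe sets, and the class median was 0.05. For the 20S core the class mean was 0.017 to 0.124 on ketogenic and -0.062 to 0.037 on control arrays, with an overlap. The 6 constitutive beta members alone spanned 0.06 to 0.111 on ketogenic and -0.043 to 0.047 on control arrays, with no overlap. The 2 immunoproteasome members overlapped, at -0.329 to 0.029 on ketogenic and -0.230 to 0.176 on control arrays. The class named activating enzymes and ligases, which holds no activating enzyme, overlapped too, at 0.132 to 0.695 on ketogenic and -0.258 to 0.255 on control arrays. Activators, inhibitor and assembly factors were separate, at 0.088 to 0.277 on ketogenic and -0.115 to 0.075 on control arrays. Conjugating enzymes spanned -0.013 to 0.143 on ketogenic and -0.034 to 0.032 on control arrays. Deubiquitinating enzymes spanned -0.023 to 0.094 on ketogenic and -0.049 to 0.035 on control arrays. In the conjugating and deubiquitinating classes ketogenic replicate 3 was the lowest ketogenic array and lay within the controls. In the 19S cap it lay at 0.094, among the other ketogenic arrays. Differences between classes were not tested, since the members were chosen with earlier results known.

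Several genes were measured by more than 1 probe set, and these often differed. Of 19 genes with 2 or 3 tested probe sets, the log2 fold changes had 1 sign in 6 and differing signs in 13. Among genes with 2 probe sets, 40% of 15 member genes had 1 sign, against 56.2% of 1020 genes of the array. Usp47 was called both ways: 1399036_at had log2 signals of 7.96, 7.80, 7.73, 8.06 and 7.91 in ketogenic samples 1 to 5, against 7.46 to 7.56 with a median of 7.51 in the control samples. By 1373157_at its log2 signals were 6.40, 6.61, 7.14, 6.74 and 6.68 in ketogenic samples 1 to 5, against 6.97 to 7.56 with a median of 7.13 in the control samples. The first rose by 0.38 (adjusted p = 0.00588 in limma, SE 0.07), with separate groups. The other fell by 0.47 (adjusted p = 0.0312 in limma, SE 0.13), with ketogenic replicate 3 inside the control range. Usp2, whose transcript levels follow the day-night cycle in rodents, had 0.34 by 1387703_a_at and -0.36 by 1375549_at, also both called. Usp48 was 1.43-fold higher by 1376849_at, and its other probe set had the same sign at 0.20, not called. Usp9x, with 3 probe sets at 0.13, -0.20 and 0.02, had none called. Usp47 was called by 1399036_at in all 11 fits that left out 1 array and by 1373157_at in 5. Usp2 was called by 1375549_at in 8 and by 1387703_a_at in 2, and Usp48 in 4, and without ketogenic replicate 2 these 4 weaker calls were lost (adjusted p of at most 0.114 over all such fits). Which transcripts each probe set matches is unknown here, so a direction for Usp47 or Usp2 as a gene is not stated.

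**Figure D4:**
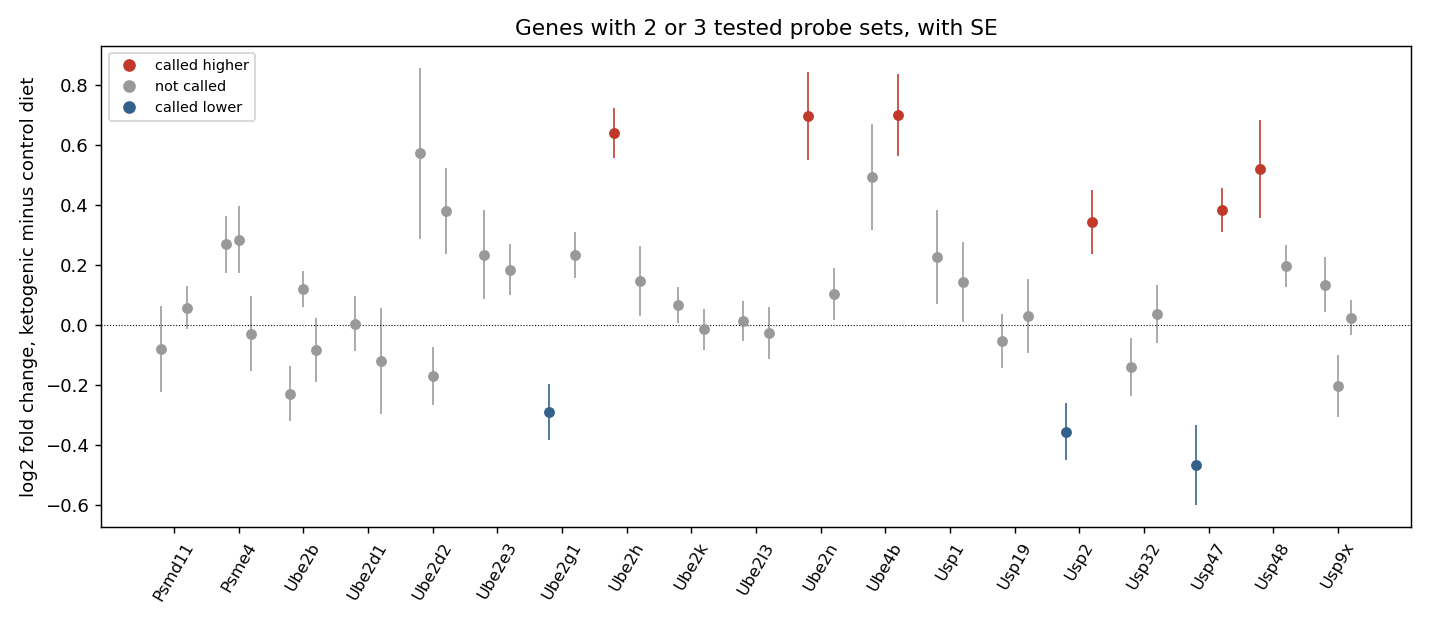
Log2 fold change, ketogenic minus control diet, of each tested probe set of the 19 genes with 2 or 3 of them, with the standard error as a bar. Red points were called higher, blue lower and grey not called; Usp2 and Usp47 have 1 probe set called in each direction.

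Promoters of the leading called member of the alpha ring, the 19S ATPases, the 19S lid and the conjugating enzymes are printed to show the sequence at the start of these genes, all 4 called higher. Each is the 300 bases from 250 before to 50 after the gene's start, from RefSeq on the build GRCr8, written 5′ to 3′ on the gene's strand. Capitals mark matches, on either strand, to any of 4 motifs. The ETS-type motif was searched as CCGGAAG and the GC box as GGGCGG. The CCAAT box was searched by the letters of its name. The core of an antioxidant-response-type element was searched as TGACNNNGC.
Psma2, chr17:55260392-55260691, - strand: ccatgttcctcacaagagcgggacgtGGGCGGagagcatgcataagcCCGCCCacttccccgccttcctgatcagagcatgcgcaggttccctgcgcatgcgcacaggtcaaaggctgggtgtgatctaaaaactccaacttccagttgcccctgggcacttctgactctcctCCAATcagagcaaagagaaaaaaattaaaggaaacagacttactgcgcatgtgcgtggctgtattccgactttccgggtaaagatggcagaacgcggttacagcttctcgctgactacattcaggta
Psmc1, chr6:125122247-125122546, + strand: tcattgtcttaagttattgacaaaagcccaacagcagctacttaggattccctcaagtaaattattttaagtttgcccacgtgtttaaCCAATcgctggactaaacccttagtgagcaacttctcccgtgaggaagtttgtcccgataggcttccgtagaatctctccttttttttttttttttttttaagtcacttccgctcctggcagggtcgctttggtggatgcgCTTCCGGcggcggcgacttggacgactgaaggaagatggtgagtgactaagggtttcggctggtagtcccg
Psmd7, chr19:52411267-52411566, - strand: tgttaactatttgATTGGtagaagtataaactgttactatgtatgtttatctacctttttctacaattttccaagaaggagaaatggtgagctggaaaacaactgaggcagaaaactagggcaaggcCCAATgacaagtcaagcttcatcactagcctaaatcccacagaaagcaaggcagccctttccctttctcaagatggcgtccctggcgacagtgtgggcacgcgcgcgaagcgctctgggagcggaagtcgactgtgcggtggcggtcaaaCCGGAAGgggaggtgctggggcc
Ube2h, chr4:59897534-59897833, - strand: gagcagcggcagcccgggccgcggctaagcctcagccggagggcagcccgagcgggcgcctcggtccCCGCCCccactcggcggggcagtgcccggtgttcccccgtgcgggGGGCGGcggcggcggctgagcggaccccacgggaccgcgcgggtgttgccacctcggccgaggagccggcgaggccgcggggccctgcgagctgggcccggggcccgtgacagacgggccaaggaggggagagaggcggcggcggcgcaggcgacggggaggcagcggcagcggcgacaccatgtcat

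Psma2 and Ube2h held GC boxes, and Psmc1 and Psmd7 an ETS-type motif, while Psma2, Psmc1 and Psmd7 held a CCAAT box. None of these 4 windows held the letters TGACNNNGC. The leading called Psmb and Psme members were searched too and are not printed. Psmb4 held an ETS-type motif and Psme1 a GC box, and neither held a CCAAT box. A promoter was found in the table for 97 of the 111 member genes. The ETS-type motif was found in 29.9% of the 97, against 9.22% of all 27457 promoters in the table and 15.5% of the 8611 promoters of genes on the array. The CCAAT box was found in 11 of 15 promoters of the 20S core, or 73.3%, and in 23.3% of those of deubiquitinating and 34.8% of those of conjugating enzymes. Over all members it was found in 39.2%, against 37.6% of the promoters of genes on the array. TGACNNNGC was found in 21.6% of member promoters and 14.6% of those of genes on the array. The GC box was found in 73.2% of member promoters and 59.6% of those of genes on the array. Among genes called higher the shares were 20.8% for the ETS-type motif and 41.7% for the CCAAT box, over 24 promoters. Median GC content was 60% for member promoters and 60.3% for those of genes on the array. Motif matches are a description of letters, with no test, and no binding was measured.

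Genes of the pathway outside the naming rule were taken from a list of 74, of which 59 were tested. On the ketogenic diet 6 rose, 2 fell and 51 were not called, with a median of 0.06. The shares were 10.2% higher and 3.39% lower, against 8.62% and 7.86% of all tested probe sets, and 13.6% called either way, against 16.5%, so the list as a whole lay near or below the array's own rate. Cul1, the scaffold of a large family of ubiquitin ligases, rose by 0.25 (SE 0.08, adjusted p = 0.0462, limma). Cops5 and Cops6, of the COP9 complex that switches cullin ligases off, rose by 0.39 and 0.22. Stub1, a ligase that works with heat shock proteins, rose by 0.28, Fbxo2, a brain substrate receptor for glycoproteins, by 0.43, and the deubiquitinase Otud5 by 0.29. Uba1, the main activating enzyme at the head of the cascade, fell by 0.17 (SE 0.05, adjusted p = 0.0379, limma), and Nedd4, a HECT ligase, by 0.32 (SE 0.07, adjusted p = 0.0116, limma). Nfe2l1, which induces proteasome genes when the proteasome is blocked, was at a log2 difference of 0.19 (adjusted p = 0.127, limma). The ubiquitin receptor Adrm1 was at 0.18 and the segregase Vcp at 0.15, not called.

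Other processing changed the number of members called, and the share called among all tested probe sets moved with it. On values as deposited 30 members rose and 10 fell, against 9.04% and 14.6% of all tested probe sets. With arrays centred on the 75th percentile 41 rose and 7 fell, against 11.4% and 11.5%. Without the filter on dim probe sets 20 rose and 2 fell, against 4.88% and 3.96%. Without the variance trend 20 rose and 5 fell, against 6.99% and 6.38%. With the hybridisation spike-ins as a covariate 18 rose and 5 fell, against 5.46% and 5.98%. Without ketogenic replicate 4, 14 rose and 0 fell, against 3.45% and 3.32%. Member counts are out of 130, or 137 without the filter. In each of the settings listed here a larger share of members than of all tested probe sets was called higher. This did not hold with the 3 prime to 5 prime covariates, where 0 members and 0% of all tested probe sets were called higher.

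**Figure D5:**
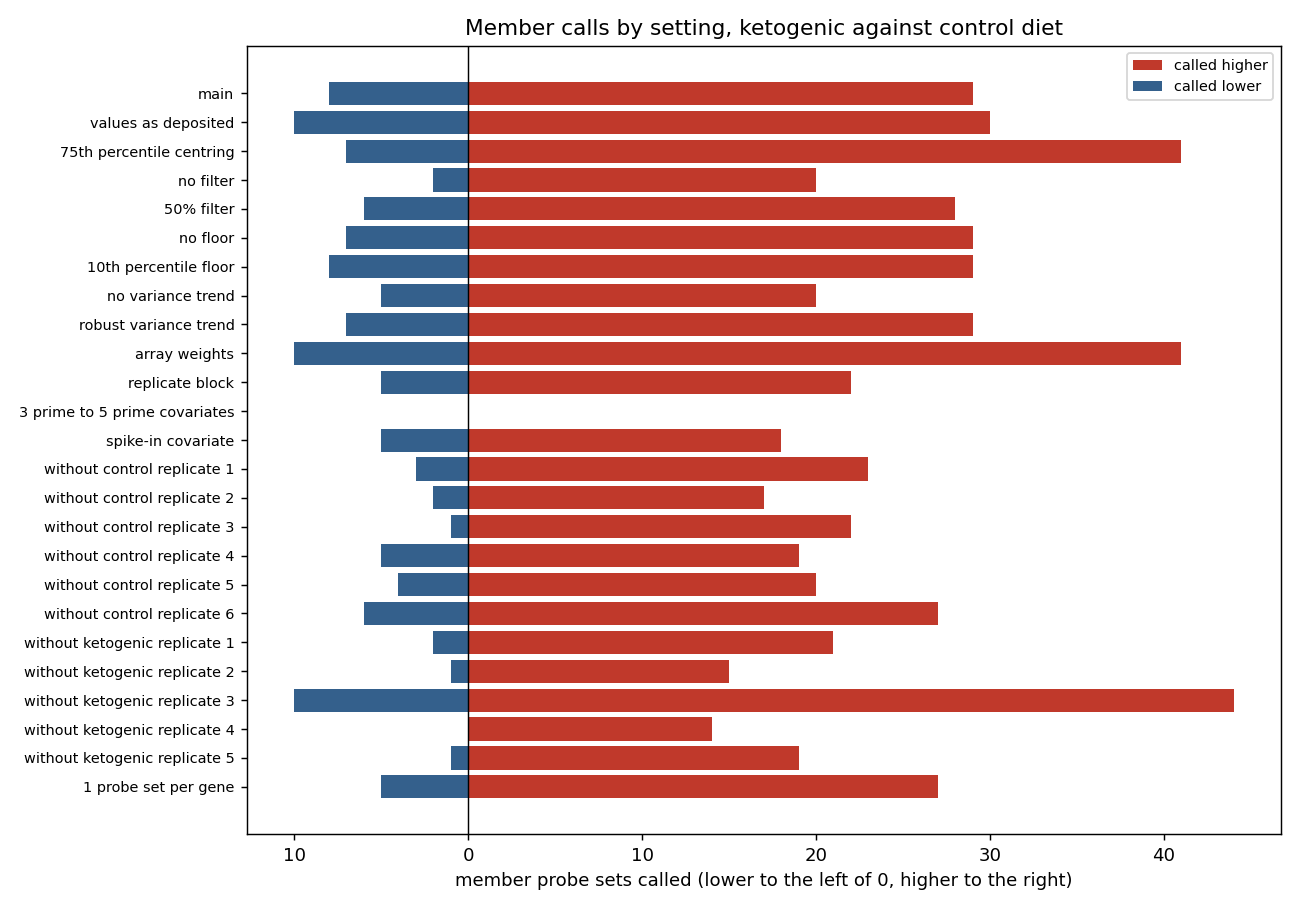
Number of member probe sets called higher (red, to the right) and lower (blue, to the left) under the reported setting (29 and 8), under each alternative setting and with each array left out. The counts range from 0 with the 3 prime to 5 prime covariates to 44 higher without ketogenic replicate 3.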

How the data were processed

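Each of the 11 hippocampal RNA samples had an array of its own, and samples were grouped by the diet in their titles. The authors deposited 1 linear intensity per probe set and array, and how the authors made them from the scans is not given in the sources used here. Log2 intensities were computed from the deposited values and quantile normalized, since array medians spanned 0.24. Values under the 5th percentile, a signal of 4.99, were set to it. Control probe sets (57) were dropped, and so was the dimmest 25% of the rest by mean, under a log2 level of 5.16. Diets were compared with limma 3.58.1 in R 4.3.3 (variance trend, two-sided). The number of arrays limits the precision. Members were matched by the platform's own symbols, which were then updated through gene identifiers (12754 of 12789 probe sets with a single symbol) in a RefSeq table of GRCr8 to match the other lists. In those lists each gene is read from its brightest tested probe set. Members named were the 6 tested probe sets with the smallest p in each class, a fixed set (among it Psmb5, Psmb7 to Psmb10, Psmd4, Psme1, Psme2, Psme4, Psmf1, Psmg1, Ube3a, Uchl1, Uchl3 and Usp9x), genes with several tested probe sets of which 1 was called, and others where this helped. The members and lists were chosen with earlier results of these data known. Alternatives were other scalings, filters, floors and variance models, array weights, a replicate block, covariates, 1 probe set per gene, and leaving out each array.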

Additional observations from a re-analysis of the deposited data

Results flagged for a closer look

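In 21 of 260 groups of values, each a tested member on the arrays of 1 diet, the highest or lowest array stood far from the rest by Dixon's 95% limit, where 1 in 20 by chance gives 13. Of 16 groups of class means 0 did. Ketogenic replicate 3 was that array in 4 of them, with log2 signals of 8.592 for Psmc1, 6.334 for Psmf1, 6.697 for Psmg1 and 7.223 for Usp10, each the lowest. Other ketogenic arrays were the lowest for Psmd13 (replicate 1, 7.118), Psmd2 (replicate 5, 8.751) and Ube3a (replicate 2, 3.564). Among control arrays, replicate 1 was lowest for Psmb10 at 6.427 and for Ube4b by 1374507_at at 5.227, and highest for Ube4a at 6.878 and Usp4 at 7.378. Control replicate 2 was highest for Psmd6 at 9.291, Psmg2 at 7.396 and Uchl1 at 10.67. Control replicate 3 was lowest for Psmg4 at 7.102, replicate 4 highest for Usp46 at 8.005 and replicate 5 lowest for Ube3a at 3.62. Control replicate 6 was highest for Psmc1 at 8.602 and Psmc4 at 9.075, and lowest for Ube2d2 by 1370525_at at 6.357 and Ube2q1 at 8.059.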

How the results depend on the processing

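On values as deposited 30 members were higher and 10 lower, and the median log2 fold change was 0.21 for the 20S core and 0.088 for the 19S cap, where the median of all tested probe sets was -0.06 and 38.3% of all calls were higher, against 52.3% as reported. With arrays centred on the 75th percentile 41 and 7 were called and these medians were 0.25 and 0.12. Without a filter on dim probe sets 20 and 2 were called, and without a variance trend 20 and 5. With the 3 prime to 5 prime covariates 0 and 0 were called, and Psmb2 (0.032) and Usp5 (-0.10) turned in sign. With spike-in signal as covariate 18 and 5 were called, and the median of the deubiquitinating enzymes was 0.10. With 1 probe set per gene 27 and 5 of 107 genes were called, with no such share over all genes at hand. Leaving out 1 array gave 14 to 44 higher and 0 to 10 lower, with the fewest without ketogenic replicate 4 and the most without ketogenic replicate 3. These fits gave medians of 0.07 to 0.10 for the 20S core, 0.03 to 0.07 for the 19S cap, 0.01 to 0.07 for conjugating and 0.03 to 0.07 for deubiquitinating enzymes. The replicate numbers share no stated source. In a check for pairing, the highest correlation of ketogenic replicates 3 and 4 was with the same-numbered control array. That of ketogenic replicates 1, 2 and 5 was with another control array. With the replicate block 22 members were higher and 5 lower, and 1815 of all 11899 tested probe sets were called, 52% of them higher. Of the 37 calls, 14 held in all 11 fits that left out 1 array, and 9 in every setting but the 3 prime to 5 prime covariates. The cause of these shifts was not tested, beyond the fewer arrays or other probe sets that some settings use. Dim probe sets, 7 of the 137 members, had too little signal to test.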
